A study of Homo sapiens with 14 samples.

Results

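The aldehyde dehydrogenases described here are the 10 genes *ALDH1A1*, *ALDH1A3*, *ALDH1B1*, *ALDH2*, *ALDH3A1*, *ALDH3A2*, *ALDH6A1*, *ALDH7A1*, *ALDH9A1* and *ALDH18A1*. They were found by their GENCODE symbols among the 60683 Ensembl gene identifiers counted in each library, and all 10 were present, beside 9 other human genes of the ALDH family that are described only by counts. Levels are given as CPM, a gene's counts per 1000000 counts on genes in that library. The study asked how cancer cells respond to CDK inhibition alone or together with indisulam. RNA was sequenced from 14 libraries in 7 groups of 2, and the labels call the 2 libraries of a group technical duplicates, so p-values measure only the spread between these samples, which may be technical.

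A549, a human lung cancer cell line, was left untreated (UT), or treated with 2 µM palbociclib for 10 days, with 0.5 µM indisulam for 10 days, with both drugs at these doses for 10 days (the combination), or with 0.5 µM PF-06873600 for 7 days. SUM159, a human triple negative breast cancer cell line, was left untreated or treated with 0.5 µM PF-06873600 for 7 days. Palbociclib inhibits the cell cycle kinases CDK4 and CDK6, PF-06873600 inhibits these and CDK2, and indisulam leads to degradation of the splicing factor RBM39. When the untreated cells were collected is not given. A549 grew in RPMI and SUM159 in DMEM/F12 with insulin and hydrocortisone, so line and medium cannot be told apart. PF-06873600 was given for a shorter time than the other treatments, so no test compares them and their values only stand side by side.

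The libraries held between 13060374 and 21149256 counts on genes, and 3 counts, the smallest number taken as detected, were worth between 0.142 and 0.23 CPM. Of the epithelial markers, untreated A549 had 2126 CPM of *KRT8* and 2521 CPM of *KRT18*, while the alveolar markers *SFTPB*, *SFTPC*, *NAPSA* and *NKX2-1* stayed under 1 CPM. Untreated SUM159 had 416.8 and 309 CPM of these 2 keratins. *EPCAM*, *CDH1* and *KRT19* were at 0.641, 0.0905 and 0.430 CPM there, against 19.4, 155.9 and 228.8 CPM in untreated A549. Untreated SUM159 had 4162 CPM of the mesenchymal gene *VIM*, against 664.8 CPM in untreated A549. *CD44* and *ZEB1* were at 929.9 and 66.8 CPM in untreated SUM159 and at 628.9 and 33.3 CPM in untreated A549. Of the receptor genes that define triple negative cancer, *PGR* was at 0 counts and *ESR1* at 0.182 CPM in untreated SUM159, while *ERBB2* was at 120.3 CPM there and 154.7 CPM in untreated A549, and *PGR* and *ESR1* were also at 0 in untreated A549. Untreated SUM159 also had 9.62 CPM of the leukocyte gene *PTPRC* and 11.2 CPM of the endothelial gene *PECAM1*, and with PF-06873600 these were 19.1 and 26.6 CPM. *VWF* and *CD14*, of endothelial cells and monocytes, were at 0.123 and 0.830 CPM in untreated SUM159 and at 0.447 and 3.58 CPM with PF-06873600, and the T cell gene *CD3E* had 0 counts in all 14 libraries. The part of these markers in the SUM159 results was not tested.

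Aldehyde dehydrogenases use NAD+ or NADP+ to oxidise reactive aldehydes to carboxylic acids. The cytosolic *ALDH1A* enzymes make retinoic acid from retinaldehyde, *ALDH2* is the main mitochondrial enzyme for acetaldehyde, and other members act on lipid aldehydes or on intermediates of amino acid breakdown. High aldehyde dehydrogenase activity is widely used to mark stem-like and drug-tolerant tumour cells, and *ALDH1A1* and *ALDH3A1* are known to be abundant in A549.

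Promoter sequences were looked up for the members in a RefSeq table (GRCh38.p14), and 8 of the 10 matched, all but *ALDH2* and *ALDH3A1*. The 250 bases before the start of 4 of them are shown, since *ALDH1A1* and *ALDH1A3* were the retinaldehyde dehydrogenases with opposite line distributions and *ALDH1B1* and *ALDH6A1* were, of the members above 10 CPM in untreated A549, the one that rose most in the combination and the one that fell most with PF-06873600. Capitals mark matches to the searched letters on either strand, namely CCAAT (which reads ATTGG on the other strand) and GGGCGG (which reads CCGCCC on that strand). The same search was made for TATAAA, known as the TATA box, for TGACNNNGC, the core of the antioxidant response element, and for the palindrome CACGTG, known as an E-box.
ALDH1A1: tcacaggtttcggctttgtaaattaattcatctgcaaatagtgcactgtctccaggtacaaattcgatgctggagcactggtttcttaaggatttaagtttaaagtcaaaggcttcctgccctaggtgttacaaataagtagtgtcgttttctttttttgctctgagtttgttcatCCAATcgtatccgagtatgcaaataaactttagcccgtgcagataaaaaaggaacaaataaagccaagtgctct
ALDH1A3: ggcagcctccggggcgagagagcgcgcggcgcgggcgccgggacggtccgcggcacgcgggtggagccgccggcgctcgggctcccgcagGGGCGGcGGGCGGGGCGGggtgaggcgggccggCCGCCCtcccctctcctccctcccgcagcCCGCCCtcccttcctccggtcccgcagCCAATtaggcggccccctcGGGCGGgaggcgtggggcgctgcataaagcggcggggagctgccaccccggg
ALDH1B1: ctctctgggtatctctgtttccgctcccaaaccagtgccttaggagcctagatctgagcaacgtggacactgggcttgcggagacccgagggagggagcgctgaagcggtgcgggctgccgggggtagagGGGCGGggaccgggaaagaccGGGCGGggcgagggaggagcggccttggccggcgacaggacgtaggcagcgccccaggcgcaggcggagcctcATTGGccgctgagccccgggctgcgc
ALDH6A1: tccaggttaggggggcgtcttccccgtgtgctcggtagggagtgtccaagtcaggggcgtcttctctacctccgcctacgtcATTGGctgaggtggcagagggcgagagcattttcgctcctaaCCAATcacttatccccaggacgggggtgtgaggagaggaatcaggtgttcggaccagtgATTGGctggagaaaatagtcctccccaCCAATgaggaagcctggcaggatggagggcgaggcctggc
They lie at chr9:72953054-72953303 (minus strand), chr15:100879581-100879830 (plus), chr9:38392452-38392701 (plus) and chr14:74084454-74084703 (minus). The starts are those of RefSeq and need not be the ends of the GENCODE gene spans given below. The *ALDH1A1* and *ALDH1A3* windows lie inside those spans, and the *ALDH6A1* window overlaps its own. The *ALDH6A1* window held 4 CCAAT matches and no GGGCGG, with 59.6% G and C. The *ALDH1A3* window held 6 GGGCGG matches, 2 of which share a base, and 1 CCAAT, with 82.4% G and C. *ALDH1B1* had 1 CCAAT and 2 GGGCGG at 70.4%, and *ALDH1A1* had 1 CCAAT and no GGGCGG at 38.4%, against a median of 58.0% G and C over all 35116 windows. The 8 matched members have 9 windows, as *ALDH3A2* has 2. CCAAT was present in 6 of these 9 windows and in 32.0% of all windows, and GGGCGG in 5 of 9 and in 42.6%. TATAAA (10.7% of all windows) and TGACNNNGC (10.9%) were found in none of the 9, and CACGTG (6.3%) in 2. These are descriptions of letters, not of bound sites.

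The summed level of the 10 members differed more between the lines than between treatments. In untreated A549 the 10 genes together had 11420 and 12423 CPM, and in untreated SUM159 they had 556.5 and 596.5 CPM. To compare genes with each other, counts were also divided by the length of the canonical transcript (CPM per kb), a scale that depends on which transcript is expressed. On this scale *ALDH3A1* made up 65.2% and *ALDH1A1* 30.3% of the summed level in untreated A549. In the combination their shares were 39.8% and 52.2%, and the summed level was 3313 and 3368 CPM per kb, against 5968 and 6610 in untreated cells. The summed level was 4745 and 4778 CPM per kb with indisulam, 8037 and 8142 with palbociclib and 7927 and 8018 with PF-06873600. In untreated SUM159 the leading members were *ALDH18A1* with 31.2%, *ALDH3A2* with 21.5% and *ALDH9A1* with 21.4%, and *ALDH1A1* and *ALDH3A1* held 0.387% and 1.44%. In bulk RNA, fewer expressing cells and less RNA per cell cannot be told apart.

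**Figure D1:**
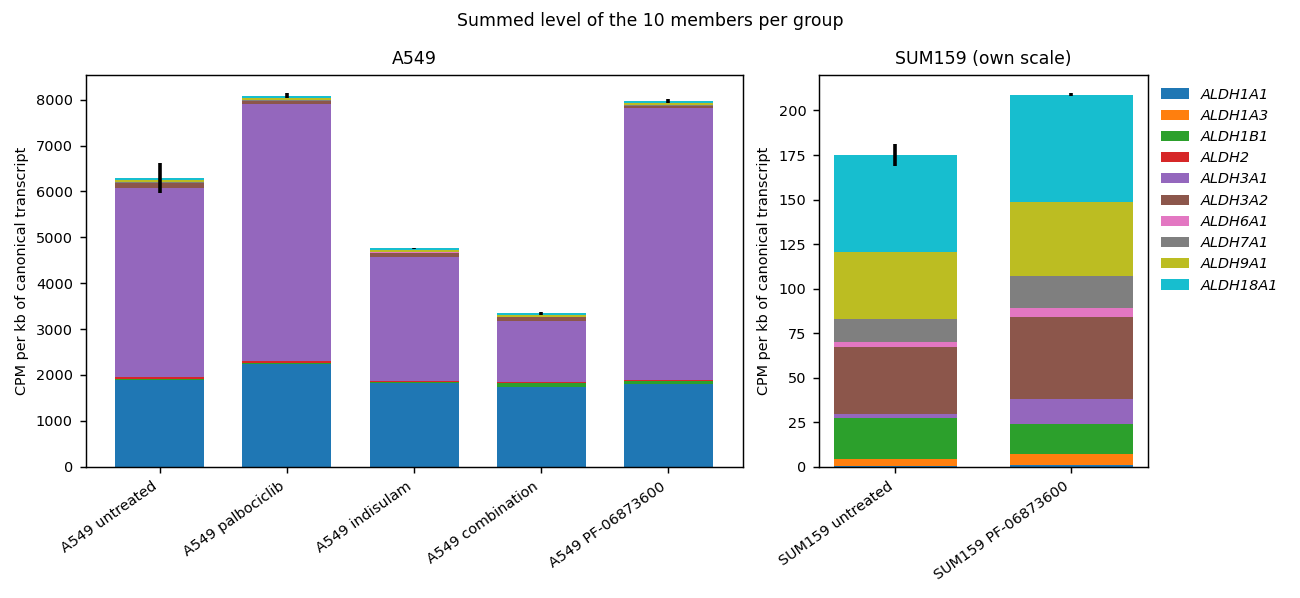
Stacked bars give the mean level of each member in CPM per kb of canonical transcript for each group, A549 on the left and SUM159 on its own scale on the right, with the black line spanning the summed level of the 2 libraries. In A549 the bars are mostly *ALDH3A1* and *ALDH1A1*, and the combination has the lowest sum, with a mean of 3341 CPM per kb, while untreated SUM159 reaches 175.2.

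*ALDH1A1* (ENSG00000165092, chr9:72900671-73080442, minus strand) encodes a cytosolic retinaldehyde dehydrogenase. Its level was 3855 and 4100 CPM in untreated A549, 4706 and 4677 with palbociclib, 3750 and 3865 with indisulam, 3674 and 3640 in the combination, and 3773 and 3797 with PF-06873600. In SUM159 it was 1.33 and 1.5 CPM untreated (22 and 24 counts) and 2.75 and 1.28 CPM with PF-06873600. All 10 A549 libraries thus lay between 3640 and 4706 CPM, those with palbociclib above the rest, and no SUM159 library reached 3 CPM. Untreated SUM159 had 2800-fold less than untreated A549 (log2 −11.45, SE 0.14, edgeR adjusted p = 1.08e-21). Palbociclib raised *ALDH1A1* 1.18-fold (log2 0.24, SE 0.05, edgeR adjusted p = 0.00571), a call lost at adjusted p = 0.118 when edgeR was fitted to these 2 groups alone. In the combination the log2 difference from untreated cells was −0.12 (SE 0.05, edgeR adjusted p = 0.0504), and it passed the threshold with TMM scaling (−0.21, adjusted p = 0.004) with DESeq2 (−0.16, adjusted p = 0.0126) and without the first untreated library (edgeR adjusted p = 0.00449). With PF-06873600 it was −0.07 in A549 (SE 0.05, edgeR adjusted p = 0.252), or 0.0436 without the first untreated library. Against palbociclib alone the combination was lower by a log2 difference of −0.36 (SE 0.05, edgeR adjusted p = 2.84e-05). In SUM159 the 2 PF-06873600 libraries enclosed the untreated values, and the log2 difference of 0.46 (95% interval −0.28 to 1.21) became −0.15 without the first of them and 0.95 without the second, where it passed the threshold (edgeR adjusted p = 0.0253).

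*ALDH1A3* (ENSG00000184254, chr15:100877714-100916626, plus strand) encodes another retinaldehyde dehydrogenase and had the opposite distribution. Untreated A549 had 5 and 3 counts (0.340 and 0.2 CPM) and palbociclib-treated cells 8 and 4 counts (0.594 and 0.244 CPM). With indisulam it stood at 4.56 and 4.82 CPM, in the combination at 13.6 and 10.9 CPM, and with PF-06873600 at 2.53 and 2.29 CPM. These 3 treatments did not overlap with untreated cells. In SUM159 it was 12.9 and 11.9 CPM untreated and 20.3 and 21.3 CPM with PF-06873600, and the values of the A549 combination enclosed those of untreated SUM159. Because so few counts stand behind untreated A549, ratios of counts scaled to the libraries are given with 95% exact intervals that cover counting error only. The combination was 45.2-fold above untreated cells (22.7 to 106), indisulam 17.4-fold (8.61 to 41.2), PF-06873600 8.89-fold (4.27 to 21.4) and palbociclib 1.49-fold (0.561 to 4.21). The edgeR adjusted p was 9.4e-10 for the combination, 4.76e-07 for indisulam, 1.56e-05 for PF-06873600 and 0.602 for palbociclib. The combination also exceeded indisulam alone, 2.60-fold (log2 1.38, SE 0.18, edgeR adjusted p = 2.27e-05). In SUM159 PF-06873600 raised the gene 1.68-fold (log2 0.75, SE 0.10, edgeR adjusted p = 8.43e-06). Its exons share 1715 bases with the opposite-strand *ALDH1A3-AS1*, which had 15 and 15 counts in untreated A549 and 84 and 75 in the combination. *ALDH1A3-AS1* had 9 and 19 counts with palbociclib, 25 and 48 with indisulam and 14 and 16 with PF-06873600 in A549. In SUM159 it had 31 and 42 counts untreated and 48 and 67 with PF-06873600. The strand setting of the counting is not given, so how reads in the shared bases were assigned is not known. The part of the overlapping gene in the *ALDH1A3* values was not tested.

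*ALDH3A1* (ENSG00000108602, chr17:19737984-19748943, minus strand) encodes an enzyme for medium-chain and aromatic aldehydes that is abundant in cornea and many carcinomas. Its level in untreated A549 was 7362 and 6114 CPM, which made it the most abundant member, and palbociclib gave 9062 and 9266 CPM. Indisulam gave 4490 and 4348 CPM, the combination 2215 and 2148 CPM, and PF-06873600 9677 and 9809 CPM. No 2 of these groups overlapped, and the spread between the untreated libraries was the widest. In SUM159 it was 4.04 and 4.20 CPM untreated (67 counts in each library) and 24.3 and 20.7 CPM with PF-06873600. Palbociclib raised it 1.36-fold (log2 0.44, SE 0.07, edgeR adjusted p = 0.000635) and indisulam lowered it 1.52-fold (log2 −0.61, SE 0.07, edgeR adjusted p = 8.26e-06). The combination lowered it 3.09-fold from untreated cells (log2 −1.63, SE 0.07, edgeR adjusted p = 7.68e-11), 4.20-fold from palbociclib alone and 2.03-fold from indisulam alone. PF-06873600 raised it 1.45-fold in A549 (log2 0.53, SE 0.07, edgeR adjusted p = 1.66e-05) and 5.43-fold in SUM159 (log2 2.44, SE 0.13, edgeR adjusted p = 4.44e-10). Even after this rise SUM159 remained far below every A549 library. Untreated SUM159 had 1630-fold less than untreated A549 (log2 −10.67, SE 0.13, edgeR adjusted p = 3.79e-22).

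*ALDH3A2* (ENSG00000072210, chr17:19648136-19685760, plus strand) lies nearby on the same chromosome and encodes fatty aldehyde dehydrogenase of the endoplasmic reticulum. Untreated A549 had 385.9 and 393.2 CPM and indisulam-treated cells 382.4 and 367.4 CPM. Palbociclib gave 275.2 and 287 CPM, the combination 259.2 and 260.4 CPM, and PF-06873600 140.5 and 146.5 CPM, all below untreated cells. SUM159 had 140.8 and 138.2 CPM untreated and 170.1 and 173 CPM with PF-06873600, so that the lines overlapped only where A549 had received PF-06873600. It fell 1.39-fold with palbociclib (log2 −0.47, SE 0.05, edgeR adjusted p = 3.63e-05), 1.5-fold in the combination (log2 −0.58, SE 0.05, edgeR adjusted p = 2.35e-07) and 2.71-fold with PF-06873600 (log2 −1.44, SE 0.06, edgeR adjusted p = 3.84e-11). For indisulam the log2 difference was −0.06 (95% interval −0.17 to 0.06). Against palbociclib alone the combination gave −0.11 (SE 0.05, edgeR adjusted p = 0.0818). This difference passed with TMM scaling (−0.21, edgeR adjusted p = 0.00461), by DESeq2 (−0.16, adjusted p = 0.0322) and with these 2 groups alone (edgeR adjusted p = 0.0493). In SUM159 PF-06873600 raised it 1.23-fold (log2 0.30, SE 0.05, edgeR adjusted p = 0.000118).

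**Figure D2:**
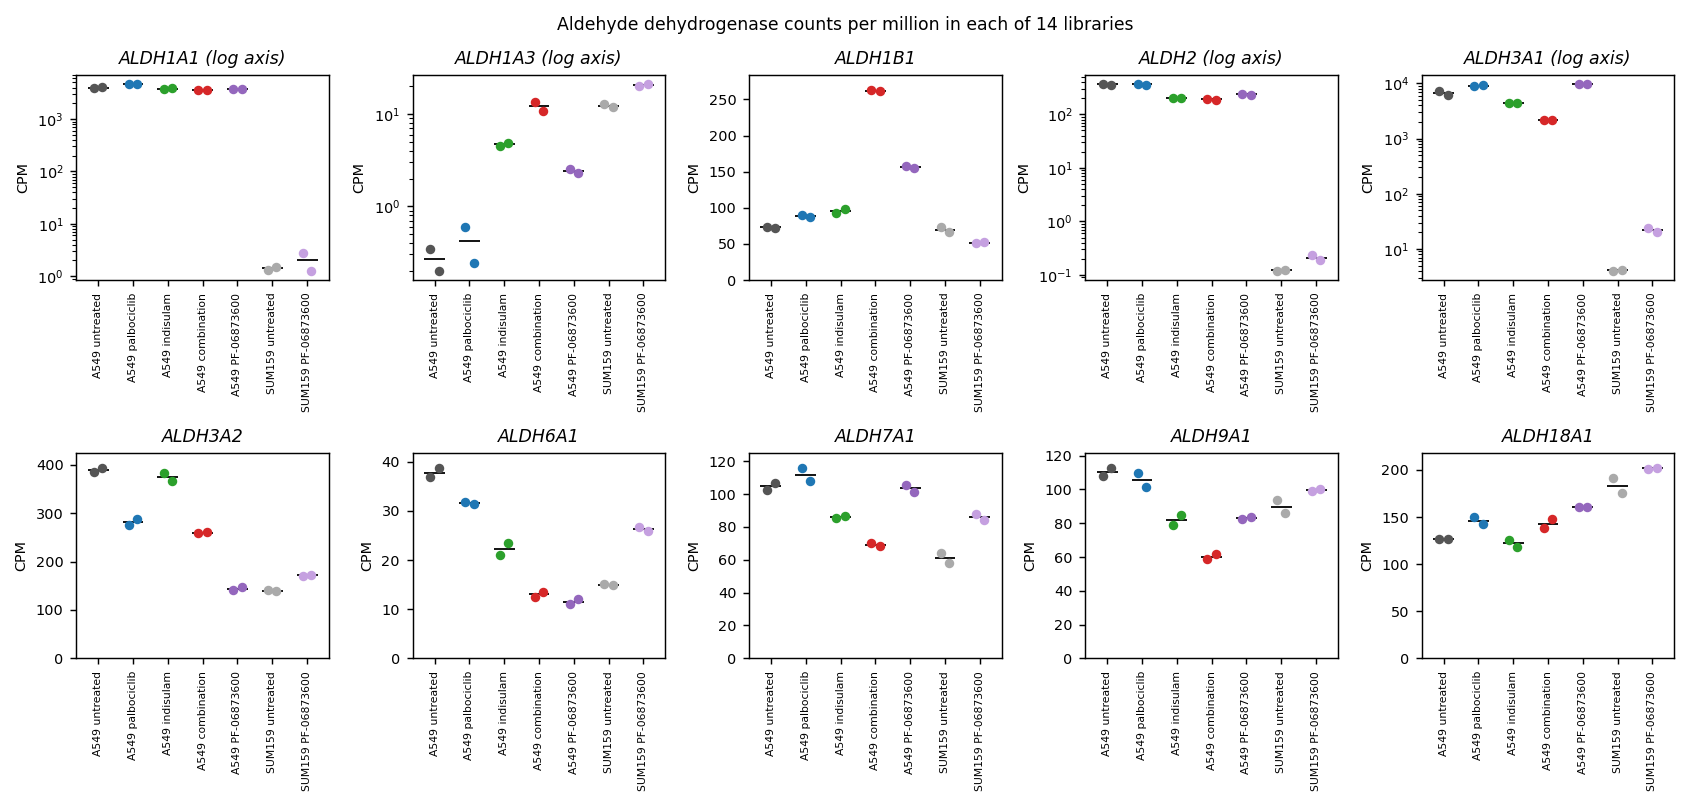
Each panel plots 1 member, with a point for the CPM of each of the 14 libraries by group and a black bar for the mean of the 2 libraries, on a linear axis from 0 or on a log axis where the panel says so. *ALDH1A1*, *ALDH2* and *ALDH3A1* stand far higher in A549 than in SUM159, *ALDH1B1* reaches 263.4 and 261.3 CPM in the A549 combination, and *ALDH6A1* in A549 lies at 11.1 and 11.99 CPM with PF-06873600 against 36.8 and 38.7 CPM untreated.

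*ALDH2* (ENSG00000111275, chr12:111766887-111817532, plus strand), the mitochondrial acetaldehyde enzyme, had 370.6 and 355.9 CPM in untreated A549 and 366.5 and 358 CPM with palbociclib, values that interleave. Indisulam gave 204.2 and 205.8 CPM, the combination 196.1 and 188.5 CPM, and PF-06873600 238.5 and 231.6 CPM, all below both untreated libraries. In SUM159 each untreated library had 2 counts and each PF-06873600 library 4 counts, so a change was not detectable at this depth and the gene did not enter the SUM159 fit. The count ratio of untreated A549 to untreated SUM159 was 2960 (95% exact interval 1150 to 10800, counting error only). Indisulam lowered *ALDH2* 1.77-fold (log2 −0.83, SE 0.05, edgeR adjusted p = 2.01e-08), the combination 1.89-fold (log2 −0.92, SE 0.05, edgeR adjusted p = 1.59e-09) and PF-06873600 1.55-fold (log2 −0.63, SE 0.05, edgeR adjusted p = 1.65e-07). The combination differed from indisulam alone by a log2 difference of −0.09 (95% interval −0.21 to 0.02, edgeR adjusted p = 0.18), and palbociclib from untreated cells by 0.00 (−0.12 to 0.11).

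*ALDH1B1* (ENSG00000137124, chr9:38392702-38398661, plus strand) encodes a second mitochondrial enzyme for acetaldehyde and related aldehydes, and it was the member above 10 CPM in untreated A549 that rose most in the combination. It had 73.7 and 72.1 CPM in untreated A549, 89.8 and 87.6 with palbociclib, 92.8 and 98.3 with indisulam, 263.4 and 261.3 in the combination, and 157.2 and 154.4 with PF-06873600. None of the A549 groups overlapped, and every treated library lay above both untreated ones. SUM159 had 73.1 and 65.9 CPM untreated, overlapping with untreated A549, and 51.5 and 52.1 CPM with PF-06873600. The combination raised it 3.60-fold (log2 1.85, SE 0.06, edgeR adjusted p = 1.66e-12), PF-06873600 2.14-fold in A549 (log2 1.10, SE 0.06, edgeR adjusted p = 9.61e-10), indisulam 1.31-fold (log2 0.39, SE 0.06, edgeR adjusted p = 8.51e-05) and palbociclib 1.22-fold (log2 0.28, SE 0.06, edgeR adjusted p = 0.0045). The palbociclib call was lost at adjusted p = 0.0781 when edgeR was fitted to these 2 groups alone. In SUM159 PF-06873600 lowered it 1.34-fold (log2 −0.42, SE 0.07, edgeR adjusted p = 3.53e-05). Untreated lines differed by a log2 difference of −0.07 (95% interval −0.20 to 0.06), which passed with TMM scaling (−0.17, adjusted p = 0.0234).

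*ALDH6A1* (ENSG00000119711, chr14:74056847-74084492, minus strand) encodes methylmalonate semialdehyde dehydrogenase, which acts in valine and thymine breakdown in mitochondria. It was the least abundant member above 10 CPM in untreated A549, with 36.8 and 38.7 CPM, and palbociclib gave 31.9 and 31.4 CPM. Indisulam gave 20.9 and 23.4 CPM, the combination 12.6 and 13.6 CPM, and PF-06873600 11.1 and 11.99 CPM, and no A549 group overlapped with another. In SUM159 the order was turned, with 15.1 and 15.0 CPM untreated and 26.7 and 25.9 CPM with PF-06873600. PF-06873600 lowered it 3.26-fold in A549 (log2 −1.71, SE 0.10, edgeR adjusted p = 1.97e-09) and raised it 1.75-fold in SUM159 (log2 0.80, SE 0.09, edgeR adjusted p = 1.15e-06). The combination lowered it 2.89-fold (log2 −1.53, SE 0.09, edgeR adjusted p = 2.75e-09) and indisulam 1.70-fold (log2 −0.77, SE 0.09, edgeR adjusted p = 6.69e-06). With palbociclib the log2 difference was −0.26 (SE 0.08, edgeR adjusted p = 0.0537), which passed without the first untreated library (0.0342). Its exons share 670 bases with the opposite-strand gene *BBOF1*, which had 75 and 77 counts in untreated A549, 58 and 70 in the combination, 35 and 47 in untreated SUM159 and 133 and 157 in SUM159 with PF-06873600. The part of the overlapping gene in the *ALDH6A1* values was not tested.

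*ALDH7A1* (ENSG00000164904, chr5:126531200-126595362, minus strand), an enzyme of lysine breakdown that is also known as antiquitin, had 102.6 and 107 CPM in untreated A549, 115.8 and 107.9 with palbociclib, 85.7 and 86.6 with indisulam, 69.9 and 68.6 in the combination, and 105.6 and 101.2 with PF-06873600. SUM159 had 64.0 and 58.3 CPM untreated and 88.0 and 84.1 CPM with PF-06873600. Indisulam and the combination lay below untreated A549, and PF-06873600 lay above untreated SUM159. Indisulam lowered it 1.22-fold (log2 −0.28, SE 0.06, edgeR adjusted p = 0.0017) and the combination 1.51-fold (log2 −0.60, SE 0.06, edgeR adjusted p = 8.72e-07). In SUM159 PF-06873600 raised it 1.41-fold (log2 0.49, SE 0.06, edgeR adjusted p = 4.93e-06), while in A549 the log2 difference was −0.02 (95% interval −0.15 to 0.11). Reads shared with its 4 processed pseudogenes were not resolved here, and these had at most 11 counts in a library.

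*ALDH9A1* (ENSG00000143149, chr1:165662216-165698562, minus strand) oxidises trimethylaminobutyraldehyde in carnitine synthesis. It had 108.2 and 112.7 CPM in untreated A549 and 109.6 and 101.7 CPM with palbociclib, values that overlapped. With indisulam it had 78.9 and 84.9 CPM, in the combination 58.6 and 61.7 CPM, and with PF-06873600 82.7 and 84.0 CPM. SUM159 had 94.0 and 85.8 CPM untreated and 99.1 and 100.5 CPM with PF-06873600. The combination lowered it 1.83-fold (log2 −0.88, SE 0.07, edgeR adjusted p = 2.96e-08), indisulam 1.35-fold (log2 −0.43, SE 0.06, edgeR adjusted p = 9.1e-05) and PF-06873600 1.33-fold (log2 −0.41, SE 0.06, edgeR adjusted p = 9.44e-05). In SUM159 the change with PF-06873600 was 1.11-fold upward (log2 0.15, SE 0.06, edgeR adjusted p = 0.0296), which DESeq2 did not call (adjusted p = 0.147) and edgeR lost without the second untreated library (0.17) or without either treated library (0.103 and 0.16).

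*ALDH18A1* (ENSG00000059573, chr10:95605941-95656711, minus strand) encodes the bifunctional enzyme that starts proline synthesis from glutamate, and unlike the other members it acts as a reductase rather than oxidising an aldehyde. Both untreated A549 libraries had 126.6 CPM, palbociclib 149.6 and 142.2, indisulam 125.8 and 118.6, the combination 137.9 and 147.8, and PF-06873600 160.9 and 160.4 CPM. SUM159 had 191.2 and 175.6 CPM untreated and 201.4 and 202 CPM with PF-06873600, above every A549 library. PF-06873600 raised it 1.27-fold in A549 (log2 0.34, SE 0.06, edgeR adjusted p = 0.000191). The calls for palbociclib, for the combination over untreated cells and for PF-06873600 in SUM159 did not hold in all settings. Palbociclib gave a log2 change of 0.20 (SE 0.06, edgeR adjusted p = 0.0316, but 0.0551 by DESeq2 and 0.163 with these 2 groups alone). The combination gave 0.17 (SE 0.06, edgeR adjusted p = 0.0188, but 0.218 with TMM scaling), and PF-06873600 in SUM159 gave 0.14 (SE 0.06, edgeR adjusted p = 0.0418, but 0.124 by DESeq2). Leaving out the second combination library ended the combination call (edgeR adjusted p = 0.18), and leaving out either palbociclib library ended the palbociclib call (0.207 and 0.072). The SUM159 call was lost without the second untreated library (0.16) and without either treated library (0.188 and 0.208).

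Over the 10 members, the combination gave 3 genes that rose, 6 that fell and 1 that did not pass the threshold in A549. Among all 15780 genes tested there, 35.1% rose and 30.0% fell, and the median log2 change was −0.59 over the members and 0.05 over all genes. The rising members were *ALDH1A3*, *ALDH1B1* and *ALDH18A1*, and the falling ones *ALDH2*, *ALDH3A1*, *ALDH3A2*, *ALDH6A1*, *ALDH7A1* and *ALDH9A1*. With indisulam 2 members rose and 5 fell (28.0% and 17.5% of all genes), with a median of −0.17 against 0.08. Over all genes 61.6% of the indisulam calls were upward with total-count scaling and 50.4% with TMM scaling. For the combination over untreated cells these shares were 53.9% and 47.6%. With palbociclib 4 rose and 1 fell (8.30% and 7.40% of all genes), and with PF-06873600 4 rose and 4 fell (28.5% and 27.8%). These 4 comparisons share the untreated libraries. With only the 2 groups compared in the fit, the palbociclib calls were 1 member up and 1 down.

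**Figure D3:**
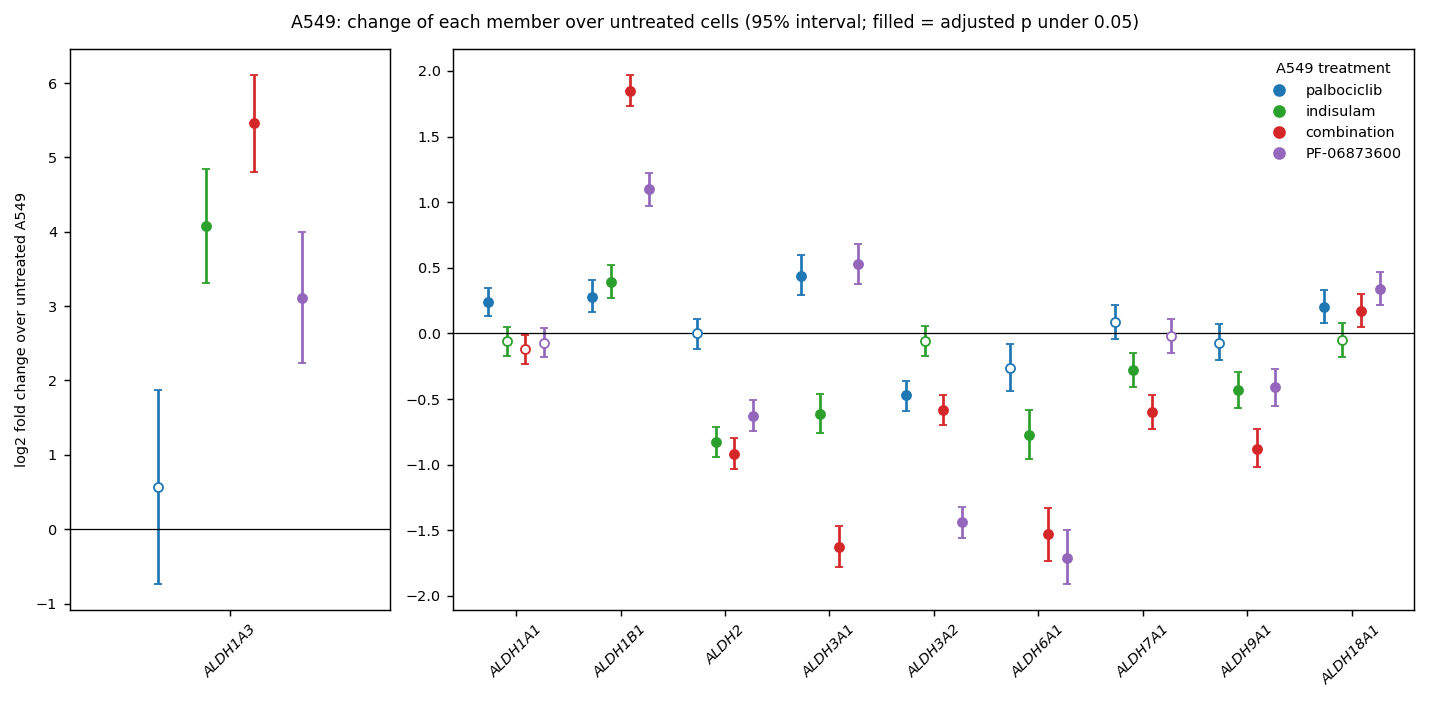
Points give the log2 fold change of each member over untreated A549 for the 4 treatments, with *ALDH1A3* on its own axis at the left, 95% intervals as bars, and filled points where the edgeR adjusted p was under 0.05. *ALDH1B1* lies highest on the right panel at 1.85 in the combination, and *ALDH3A1* lies at −1.63 in the combination but at 0.53 with PF-06873600.

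The second question was whether adding indisulam to palbociclib, or palbociclib to indisulam, changed the members. Relative to palbociclib alone, 2 members rose in the combination and 6 fell (33.5% and 26.9% of all genes), *ALDH3A1* furthest at log2 −2.07 (SE 0.07, edgeR adjusted p = 1.09e-11) among the falling members. Over all genes 55.4% of these calls were upward with total-count scaling and 47.3% with TMM scaling. Relative to indisulam alone, 3 rose and 5 fell (22.0% and 23.9%). There *ALDH1B1* rose 2.74-fold (log2 1.46, SE 0.06, edgeR adjusted p = 9.77e-11) and *ALDH3A2* fell 1.44-fold (log2 −0.53, SE 0.05, edgeR adjusted p = 1.82e-06). *ALDH6A1* fell 1.70-fold beyond indisulam alone (log2 −0.76, SE 0.10, edgeR adjusted p = 2.12e-05). *ALDH18A1* rose 1.17-fold there (log2 0.23, SE 0.06, edgeR adjusted p = 0.00648), and this call was lost at adjusted p = 0.0778 without the second indisulam library and at 0.092 without the second combination library.

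An interaction term tested whether the combination differed from the sum of the single-drug log2 changes. It was positive for 1 member and negative for 5, where 10.7% and 14.5% of all genes were called. *ALDH1B1* exceeded the sum by 1.17 (SE 0.08, edgeR adjusted p = 1.1e-07), which is 2.26-fold. *ALDH3A1* differed from it by −1.46 (SE 0.10, edgeR adjusted p = 1.09e-07), as palbociclib alone raised this gene and the combination stood below indisulam alone. The other negative terms were −0.50 for *ALDH6A1* (SE 0.13, edgeR adjusted p = 0.0108, but 0.0778 by DESeq2), −0.41 for *ALDH7A1* (SE 0.09, edgeR adjusted p = 0.0031), −0.38 for *ALDH9A1* (SE 0.09, edgeR adjusted p = 0.0081) and −0.30 for *ALDH1A1* (SE 0.07, edgeR adjusted p = 0.00784). The *ALDH6A1* term was also lost without the second indisulam library (edgeR adjusted p = 0.0605) and without the first combination library (0.0628). For *ALDH2*, *ALDH3A2* and *ALDH18A1* the term was −0.09 (95% interval −0.25 to 0.07), −0.06 (−0.22 to 0.10) and 0.02 (−0.16 to 0.20). For *ALDH1A3* it was 0.81 with a wide interval of −0.65 to 2.27.

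**Figure D4:**
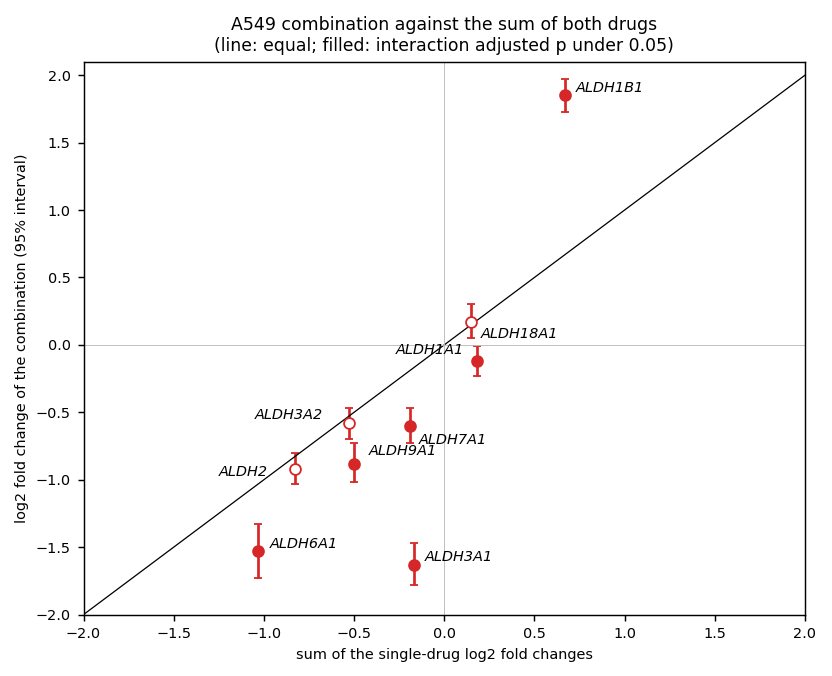
Each point is 1 member other than *ALDH1A3*, with the sum of its palbociclib and indisulam log2 fold changes on the x axis and its log2 fold change in the combination with a 95% interval on the y axis, both over untreated A549. Filled points have an interaction adjusted p under 0.05 and the line marks equality: *ALDH1B1* stands 1.17 above it, *ALDH3A1* stands furthest below it, and *ALDH2*, *ALDH3A2* and *ALDH18A1* lie near it.

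Among these 14 libraries, PF-06873600 at the same dose and time was the one treatment that both lines shared. In SUM159, 7 members rose, 1 fell and 1 did not pass among the 9 tested (38.1% and 35.6% of 15055 genes rose and fell), with a median log2 change of 0.46 over the members and 0.02 over all genes. In A549 the median was −0.05 over the members and −0.01 over all genes. The difference between the 2 responses, tested in 1 model of all 14 libraries, was higher in SUM159 for 5 members and lower for 3 (25.8% and 27.2% of 17279 genes). Of the higher responses in SUM159, that of *ALDH6A1* differed most, by 2.51 on the log2 scale (SE 0.13, edgeR adjusted p = 7.26e-12), followed by *ALDH3A1* at 1.91 (SE 0.16, edgeR adjusted p = 5.26e-09) and *ALDH3A2* at 1.74 (SE 0.08, edgeR adjusted p = 8.59e-13). *ALDH6A1* and *ALDH3A2* fell in A549 and rose in SUM159, whereas *ALDH1B1* rose in A549 and fell in SUM159. *ALDH9A1* also fell in A549, but its rise in SUM159 was small (log2 0.15). DESeq2 did not call that rise (adjusted p = 0.147), and edgeR lost it when some single libraries were left out. The *ALDH1B1* difference was −1.52 (SE 0.09, edgeR adjusted p = 3.24e-11). *ALDH3A1* and *ALDH1A3* rose in both lines by different amounts, and the *ALDH1A3* difference of −2.37 (SE 0.43, edgeR adjusted p = 0.000128) rests on 5 and 3 counts in untreated A549.

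**Figure D5:**
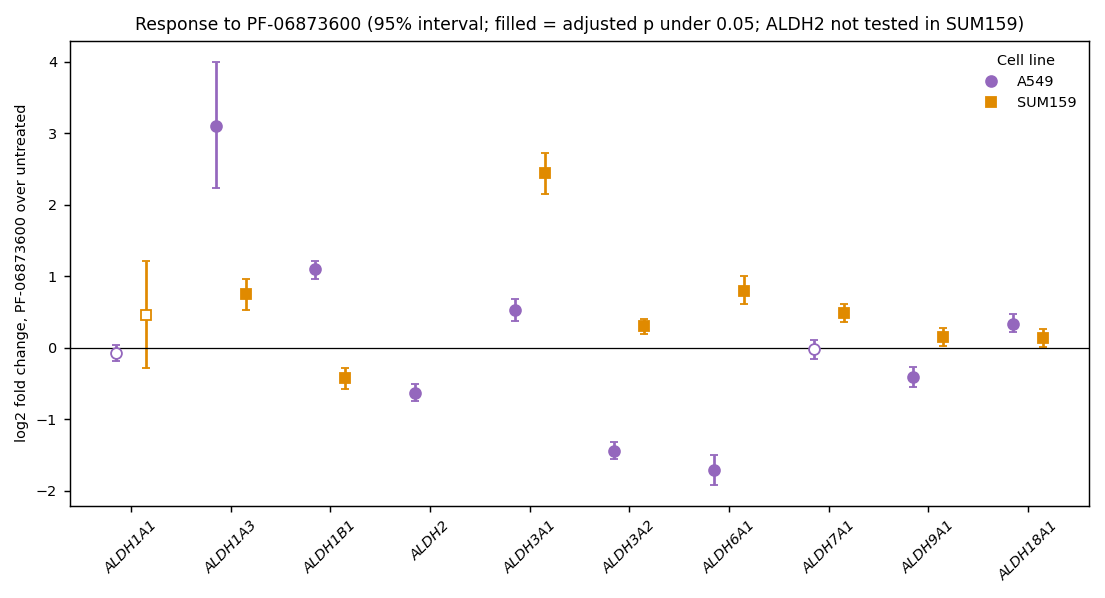
Points give the log2 fold change with PF-06873600 over untreated cells for each member in A549 (circles) and SUM159 (squares), with 95% intervals, filled where the edgeR adjusted p was under 0.05. *ALDH6A1* and *ALDH3A2* lie below 0 in A549, at −1.71 and −1.44, and above 0 in SUM159, at 0.80 and 0.30, and *ALDH2* has no SUM159 point since it was not tested there.

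Between the untreated lines, 2 members were higher in SUM159, 7 were lower and 1 did not pass (41.9% and 36.8% of 17279 genes). *ALDH1A3* and *ALDH18A1* were the higher ones, at a count ratio of 46.0 (23.1 to 107) and a fold of 1.45 (log2 0.53, SE 0.06, edgeR adjusted p = 1.03e-07). Apart from *ALDH1A1*, *ALDH2* and *ALDH3A1*, the lower members differed by 2.79-fold for *ALDH3A2*, 2.51-fold for *ALDH6A1*, 1.71-fold for *ALDH7A1* and 1.23-fold for *ALDH9A1* (largest edgeR adjusted p = 0.000308). The median log2 difference was −1.05 over the members and 0.08 over all genes.

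Of the 9 other human ALDH genes, 7 were tested in A549, and *ALDH1A2* and *ALDH3B2* were under 1 CPM in every library. In the combination 3 rose and 3 fell (35.1% and 30.0% of all genes), with palbociclib 1 and 1 (8.30% and 7.40%), with indisulam 3 and 2 (28.0% and 17.5%), and with PF-06873600 1 and 3 (28.5% and 27.8%). *ALDH4A1*, which completes proline breakdown, rose from a mean of 9.37 CPM in untreated A549 to 27.7 CPM in the combination (log2 1.56, SE 0.11, edgeR adjusted p = 1.12e-08) and to 37.9 CPM with PF-06873600 (log2 2.02, SE 0.11, edgeR adjusted p = 9.73e-10). *ALDH1L2*, a mitochondrial folate enzyme, fell from 109.4 to 22.6 CPM in the combination (log2 −2.27, SE 0.10, edgeR adjusted p = 3.97e-11). *ALDH3B1* fell from 390.2 to 229.7 CPM there (log2 −0.76, SE 0.08, edgeR adjusted p = 4.86e-07), and *ALDH5A1*, succinate semialdehyde dehydrogenase, rose from 29.4 to 43.0 CPM (log2 0.54, SE 0.08, edgeR adjusted p = 1.8e-05). In SUM159 4 of 6 tested rose with PF-06873600 and 1 fell (38.1% and 35.6% of all genes), *ALDH4A1* from 6.46 to 13.5 CPM (log2 1.06, SE 0.13, edgeR adjusted p = 3.03e-06) and *ALDH16A1* from 21.9 to 18.8 CPM (log2 −0.21, SE 0.09, edgeR adjusted p = 0.048).

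The genes that make or remove the members' substrates were described by list. Of 19 genes for alcohol oxidation, aldehyde reduction or, for *AOX1*, aldehyde oxidation, 16 were tested in A549. In the combination 2 of them rose and 13 fell (35.1% and 30.0% of all genes), with a median log2 change of −1.10 against 0.05 over all genes. The alcohol dehydrogenase gene *ADH1C* went from 472.5 to 31.5 CPM (log2 −3.91, SE 0.08, edgeR adjusted p = 2.45e-14), while the aldehyde oxidase gene *AOX1* went from 2.19 to 52.3 CPM (log2 4.57, SE 0.15, edgeR adjusted p = 2.25e-12). Reads of *ADH1C* may be split among near-identical alcohol dehydrogenase genes. In SUM159 with PF-06873600, 9 of 12 tested rose and 1 fell (38.1% and 35.6% of all genes), *AKR1B1* from 821.1 to 3811 CPM (log2 2.21, SE 0.08, edgeR adjusted p = 4.43e-12) and *AKR1B10* from 3.75 to 12.02 CPM (log2 1.68, SE 0.15, edgeR adjusted p = 9.09e-08). Both encode aldo-keto reductases, which turn aldehydes into alcohols. Of 20 retinoid genes, 18 were tested in A549, and in the combination 8 rose and 4 fell, with a median of 0.05 as over all genes. *DHRS9*, a retinol dehydrogenase, rose from 1.21 to 26.6 CPM (log2 4.45, SE 0.17, edgeR adjusted p = 1.36e-11), and *RDH10*, a more abundant retinol dehydrogenase gene that was added here after its values were seen, fell from 412 to 92.7 CPM (log2 −2.15, SE 0.05, edgeR adjusted p = 2.15e-13). In SUM159 5 of 15 retinoid genes rose with PF-06873600 and 6 fell, and *CYP26B1*, which degrades retinoic acid, went from 10.5 to 42.9 CPM (log2 2.03, SE 0.09, edgeR adjusted p = 2.84e-11) and *TGM2* from 244.1 to 953.8 CPM (log2 1.97, SE 0.06, edgeR adjusted p = 1.93e-12).

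Of 20 genes of branched-chain amino acid breakdown, the pathway of *ALDH6A1*, 19 were tested, and in the A549 combination 14 fell and 5 did not pass (30.0% of all genes fell, and the median was −0.47 against 0.05), with *MCCC1* at log2 −1.56 (SE 0.10, edgeR adjusted p = 3.46e-09) and *BCAT2* at −1.40 (SE 0.09, edgeR adjusted p = 2.51e-09). With PF-06873600, 4 rose and 11 fell in A549 (28.5% and 27.8% of all genes, median −0.53 against −0.01), with *AUH* at −1.31 (SE 0.14, edgeR adjusted p = 1.31e-06) and *BCAT1* at −0.80 (SE 0.07, edgeR adjusted p = 2.81e-07). In SUM159 10 rose and 3 fell (38.1% and 35.6% of all genes, median 0.18 against 0.02), *ABAT* at log2 4.46 (SE 0.19, edgeR adjusted p = 2.99e-11). Of 10 genes of proline metabolism around *ALDH18A1*, 9 were tested in A549, and in the combination, where 35.1% of all genes rose and 30.0% fell, 4 rose and 4 fell, *PYCR1*, a later enzyme of proline synthesis, by a log2 value of −1.69 (SE 0.06, edgeR adjusted p = 9.23e-12). Of 8 genes of lysine breakdown and carnitine synthesis around *ALDH7A1* and *ALDH9A1*, 5 were tested in A549, and 1 rose and 4 fell in the combination, with *GCDH* at log2 −1.11 (SE 0.16, edgeR adjusted p = 3.34e-05) and *TMLHE* at −0.72 (SE 0.12, edgeR adjusted p = 0.000142). Of 10 genes of fatty aldehyde and sphingolipid turnover around *ALDH3A2*, 9 were tested in A549, and 3 rose and 5 fell in the combination, with *HACL1* at log2 −1.80 (SE 0.11, edgeR adjusted p = 2.65e-09) and *AGMO* at −1.23 (SE 0.13, edgeR adjusted p = 1.4e-06).

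For the 3 members with the largest change over untreated A549, the most similar genes were sought by the root mean square difference of log2 changes over the 8 treated A549 libraries, among 9621 genes. For *ALDH1B1* they were *PHETA1* (0.0938), *FBXL2* (0.0977) and *SLC2A1* (0.0996), and *SLC2A1* had log2 changes of 0.28, 0.45, 1.72 and 1.21 with palbociclib, indisulam, the combination and PF-06873600. For *ALDH6A1* they were ENSG00000231683 (0.125), *HAUS4* (0.158) and *SLC6A9* (0.16). For *ALDH1A3* they were *COL17A1* (0.469), *COL1A1* (0.526) and *FSTL1* (0.607), at larger distances than for the other members. *ALDH1A3* had only 5 and 3 counts in untreated A549. Its largest absolute log2 change was 5.46, against 1.85 for *ALDH1B1* and 1.71 for *ALDH6A1*. The part of low counts and of the size of the change in these distances was not tested. The treated libraries are all set against the same untreated libraries, so these distances are descriptions.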

How the data were processed

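Poly-A RNA with a RIN above 8 was made into stranded libraries and sequenced as single-end 65 bp reads. The authors deposited raw counts of reads per gene for each library, aligned to GRCh38. Their processing notes list HISAT2 2.2.1 and HTSeq, while the annotation release and strand setting are not given in the sources used here. Each file held 60683 Ensembl identifiers and 9 summary lines; the summary lines, which held between 29.1% and 36.0% of a file's counts, were left out. Symbols and lengths came from GENCODE 44.

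Counts were tested as deposited with edgeR 4.0.16 (quasi-likelihood F test, filterByExpr, libraries scaled by total count), separately for the 10 A549 libraries (15780 genes), the 4 SUM159 libraries (15055) and all 14 (17279), with Benjamini-Hochberg adjustment over all genes tested and a threshold of 0.05. On simulated counts of 15340 genes for the combination, 93% of 2-fold changes were recovered and 4.46% of calls were false. There 200 genes changed, and all libraries had the same coefficient of variation of 0.05 beyond counting error. In the data 10283 genes were called for the combination, and the spread differed between groups. The simulation therefore does not give the false rate of these tests. Alternatives were TMM scaling, DESeq2 1.42.0, other count filters, fewer groups, a replicate block and leaving out each library. The members and lists were chosen with earlier results of these data known. All 10 members are named, other family genes where called at 10 CPM or more, and of other lists the called genes with the largest change at 10 CPM or more in the higher group. Some genes that this rule names are not reported here. Counting intervals cover counting error only. The 2 libraries of each group differed beyond sampling noise in the counts, and not evenly. The chi-square per degree of freedom between them was 10.5 in untreated A549 and 9.99 in untreated SUM159. In the treated groups it lay between 1.66 (A549 with PF-06873600) and 5.47 (A549 with palbociclib). Each fit used a spread shared by its groups, and the untreated groups were the noisiest.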

Additional observations from a re-analysis of the deposited data

Results flagged for a closer look

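The response to PF-06873600 differed between SUM159 and A549 for 8 members, by a test of the difference itself in a model of all 14 libraries (edgeR). Over all 17279 genes the same test called 25.8% higher in SUM159 and 27.2% lower, so such a difference was common. The SUM159 response minus the A549 response was 2.51 for *ALDH6A1*, 1.91 for *ALDH3A1*, 1.74 for *ALDH3A2*, 0.56 for *ALDH9A1* and 0.51 for *ALDH7A1* on the log2 scale. It was −2.37 for *ALDH1A3*, −1.52 for *ALDH1B1* and −0.21 for *ALDH18A1*. The *ALDH18A1* difference was lost with TMM scaling (edgeR adjusted p = 0.184), by DESeq2 (0.219), with no filter on low counts (0.0944) and with the compared groups alone (0.065), and on leaving out either A549 PF-06873600 library (0.104 and 0.0995), the first untreated SUM159 library (0.202) or either treated one (0.101 and 0.096). For *ALDH2* the difference was 1.36 (edgeR adjusted p = 0.161), with 2 counts in each untreated SUM159 library, and for *ALDH1A1* it was 0.53 (edgeR adjusted p = 0.137), or 0.00214 without the second treated SUM159 library.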

How the results depend on the processing

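Of 99 tests of a member in a comparison, 76 passed the threshold, and 67 of these kept their direction and their call under every alternative, the libraries left out one at a time included. No called change turned direction in any of them, and 8 lost the call in at least 1 setting other than leaving out a library. Over all genes, the share called in 1 direction of a comparison ran from 7.40% (lower with palbociclib in A549) to 41.9% (higher in untreated SUM159). Many calls are therefore shared with genes at large, and the comparisons share libraries, so the 99 tests are not independent. With only the compared groups in the fit, 2 members were called with palbociclib instead of 5, and over all genes 949 calls were made instead of 2478, against 1589 by DESeq2. Without 1 palbociclib library they were 1472 and 1301. Of the values that did not pass the threshold, some turned sign. *ALDH2* with palbociclib was 0.00 with TMM scaling and 0.00 by DESeq2, and ranged from −0.03 to 0.03 with 1 library left out. On leaving out 1 library, *ALDH1A3* with palbociclib ranged from −0.14 to 1.12, *ALDH18A1* in the combination over palbociclib from −0.08 to 0.02 and in the interaction from −0.03 to 0.07, *ALDH7A1* with PF-06873600 in A549 from −0.05 to 0.01, *ALDH1A1* with PF-06873600 in SUM159 from −0.15 to 0.95 and in the difference between lines from −0.07 to 1.03, and *ALDH1B1* between untreated lines from −0.15 to 0.00.

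The replicate block changed no member's call, with 5 members called with palbociclib and 9 in the combination. Deviations of same-numbered libraries correlated between −0.217 and 0.166, so the numbers were not taken to pair the samples. With crossed numbers, chosen after seeing the data, 6 members were called with palbociclib and 9 between untreated lines. Depth limits *ALDH2* and *ALDH1A1* in SUM159 and *ALDH1A3* in untreated A549.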
